A study of Mus musculus with 30 samples.

Results

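The sites of SMARCA5 were compared before and after loss of CTCF in E14 mouse embryonic stem cells, from the peak lists of chromatin immunoprecipitation (ChIP-seq) libraries, over chromosomes 1 to 19 and X. All 4 SMARCA5 libraries came from cells of the genotype CTCF AID and biotin-SMARCA5, in which CTCF carries an auxin-inducible degron (AID) and SMARCA5 a biotin tag. In 2 libraries (0 h) the cells had received no indole-3-acetic acid (IAA), the auxin that sends a degron-tagged protein to the proteasome, and in the other 2 (12 h) they had received IAA for 12 h. The degron and the tag are shared by both groups, no IAA-treated cells without the degron were analysed here, and the labels do not say whether a line is 1 clone or whether replicates were separate cultures, so p-values measure the spread between these libraries, which may be technical. The cells were kept in serum-free medium with leukemia inhibitory factor, PD0325901 and CHIR99021. CTCF and the cohesin subunit SMC1A were mapped in cells of the genotype CTCF AID, with 1 library per time, and CHD4, CHD8 and SMARCA4 in cells that were CTCF AID and biotin-CHD4, CTCF AID and biotin-CHD8 or CTCF AID and biotin-SMARCA4, with 2 libraries per time. The series has 30 samples, of which 4 are the SMARCA5 libraries. The numbers of SMARCA5 peaks on these chromosomes were 55470 and 73222 without IAA and 71051 and 67041 after it. Read numbers and sequencing depth are unknown, and peak lists give no expression by which the labelled cell type could be checked.

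SMARCA5, also called SNF2H, is the ATPase of the mammalian ISWI chromatin remodelers, which slide nucleosomes and space them evenly. CTCF, a DNA-binding factor with many zinc fingers, recognises a long and directional sequence. Regularly spaced nucleosomes flank its sites, and it halts cohesin, which forms chromatin loops. SMARCA5 is known to be needed in embryonic stem cells for the nucleosome arrays at CTCF sites and for CTCF binding itself. After 12 h of IAA, 7.44% of the 29926 CTCF peaks of the 0 h library overlapped a CTCF peak of the 12 h library (1 library per time).

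Peaks of the 4 SMARCA5 lists that overlapped by at least 1 bp were merged into 118677 regions. A region is called 0 h-only when both 0 h lists and neither 12 h list hold a peak in it, and 12 h-only in the opposite case. There were 3419 0 h-only regions (2.88% of all regions) and 4312 12 h-only regions (3.63%). Which class was larger depended on the processing, with 3473 0 h-only and 3344 12 h-only regions from lists of equal length, and 6062 and 6052 from summits with 100 bp to either side. The 0 h-only regions were 10.6% of the 32126 regions in both 0 h lists, and the 12 h-only regions were 12.9% of the 33393 regions in both 12 h lists. A list is a yes or no at the authors' threshold, so signal below that threshold can remain in a region that lacks a peak.

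Sequences of 5 regions are given as examples of where the SMARCA5 summits lay, with any match to the CTCF sequence marked. They are a filtered choice. Regions at CTCF were eligible only with such a match, with the summits of both replicates near each other and without an exon. The Nanog region was picked by name. They are from the RefSeq assembly GRCm38.p6, read 5′ to 3′ on the plus strand, and capitals mark the best match of 19 bases to a CTCF matrix that was built from the 2000 strongest CTCF summits of the 0 h library. The consensus of that matrix is CCACCAGGGGGCGCNNNNG, and a match was found within 100 bp of 89.0% of CTCF summits and in 5.0% of windows of the same length placed 1 kb from them, a share set by the threshold. The 3 regions below were 0 h-only, lay between genes and ranked among the 12 highest of that class.
Tut7 region, chr13:59840740-59841030, plus strand: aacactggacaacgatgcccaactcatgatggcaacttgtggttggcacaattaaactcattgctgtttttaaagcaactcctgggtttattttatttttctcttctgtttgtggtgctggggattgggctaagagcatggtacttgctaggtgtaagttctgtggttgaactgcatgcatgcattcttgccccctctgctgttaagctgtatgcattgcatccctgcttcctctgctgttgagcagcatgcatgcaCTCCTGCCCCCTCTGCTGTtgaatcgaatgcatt
Gdf7 region, chr12:8306713-8306962, plus strand: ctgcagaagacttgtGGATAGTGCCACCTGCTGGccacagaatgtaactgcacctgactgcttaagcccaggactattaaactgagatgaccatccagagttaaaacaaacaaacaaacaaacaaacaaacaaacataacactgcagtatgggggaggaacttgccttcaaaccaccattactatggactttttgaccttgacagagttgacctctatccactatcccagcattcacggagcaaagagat
Smox region, chr2:131423176-131423400, plus strand: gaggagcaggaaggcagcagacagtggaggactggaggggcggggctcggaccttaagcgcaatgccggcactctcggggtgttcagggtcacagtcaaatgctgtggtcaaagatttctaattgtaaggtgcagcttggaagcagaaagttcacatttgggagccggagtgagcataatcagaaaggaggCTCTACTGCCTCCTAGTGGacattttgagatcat
In these 3 regions the match lies on the minus strand. The SMARCA5 summits of the 0 h replicates were at bases 71 and 16 of the Tut7 sequence, which is 196 and 251 bp from the centre of the match on its 3′ side. They were at bases 16 and 57 of the Smox sequence, 185 and 144 bp from the match on the 3′ side. In the Gdf7 sequence they were at bases 235 and 223, on the 5′ side of the match at distances of −210 and −198 bp, where minus denotes that side. The next 2 regions were 12 h-only and overlapped no CTCF peak.
C330021F23Rik region, chr8:3547358-3547508, plus strand: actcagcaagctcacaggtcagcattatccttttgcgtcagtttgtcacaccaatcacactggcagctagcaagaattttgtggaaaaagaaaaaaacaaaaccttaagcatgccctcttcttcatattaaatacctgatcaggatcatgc
Nanog region, chr6:122708982-122709184, plus strand: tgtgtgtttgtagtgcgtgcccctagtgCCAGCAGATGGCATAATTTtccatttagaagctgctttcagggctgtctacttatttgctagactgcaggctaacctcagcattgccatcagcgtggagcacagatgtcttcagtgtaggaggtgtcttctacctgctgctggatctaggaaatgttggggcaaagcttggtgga
The first of them was the highest-ranked 12 h-only region, and the second lay in an intron of Nanog, which encodes a pluripotency factor. The former held no match to the matrix, and the 12 h summits were at its bases 71 and 81. In the Nanog sequence they were at bases 16 and 188, and the matrix match stood there without a CTCF peak, the nearest being 8899 bp away.

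Regions that held SMARCA5 at 0 h and not at 12 h were rich in CTCF sites, and regions with the opposite pattern were poor in them. Of the 0 h-only regions, 910 (26.6%, exact Clopper-Pearson 95% interval 25.1% to 28.1%) overlapped a 0 h CTCF peak. Of the 12 h-only regions, 158 (3.66%, 3.12% to 4.27%) did so. The share was 14.1% (13.6% to 14.6%) among the 21436 regions held by all 4 lists, and 8.96% among all regions. Intervals cover counting error over regions, which are not replicates, so no test was made on these shares. A further 227 of the 0 h-only regions (6.64%) and 333 of the 12 h-only regions (7.72%) lay within 1 kb of a CTCF peak without touching one. The remaining 2282 0 h-only and 3821 12 h-only regions were more than 1 kb away. Among regions that did not overlap a CTCF peak, the median gap to the nearest was 16202 bp in the 0 h-only class and 12341 bp in the 12 h-only class. It was 15834 bp in the class held by all 4 lists and 14402 bp over all regions, which lies between the 2 time classes. The share of 26.6% fell when the rule was loosened by leaving out a list, to 14.7% without replicate 1 and 15.1% without replicate 2 of 0 h, and to 17.7% without replicate 1 and 21.0% without replicate 2 of 12 h. It was 15.4% when each peak was cut to its summit with 100 bp to either side, and 39.1% when no 12 h peak was allowed within 1 kb. The share of the 12 h-only regions stayed between 2.72% and 11.4% under the same changes and under a wider CTCF window, and was below that of the 0 h-only regions each time.

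**Figure D1:**
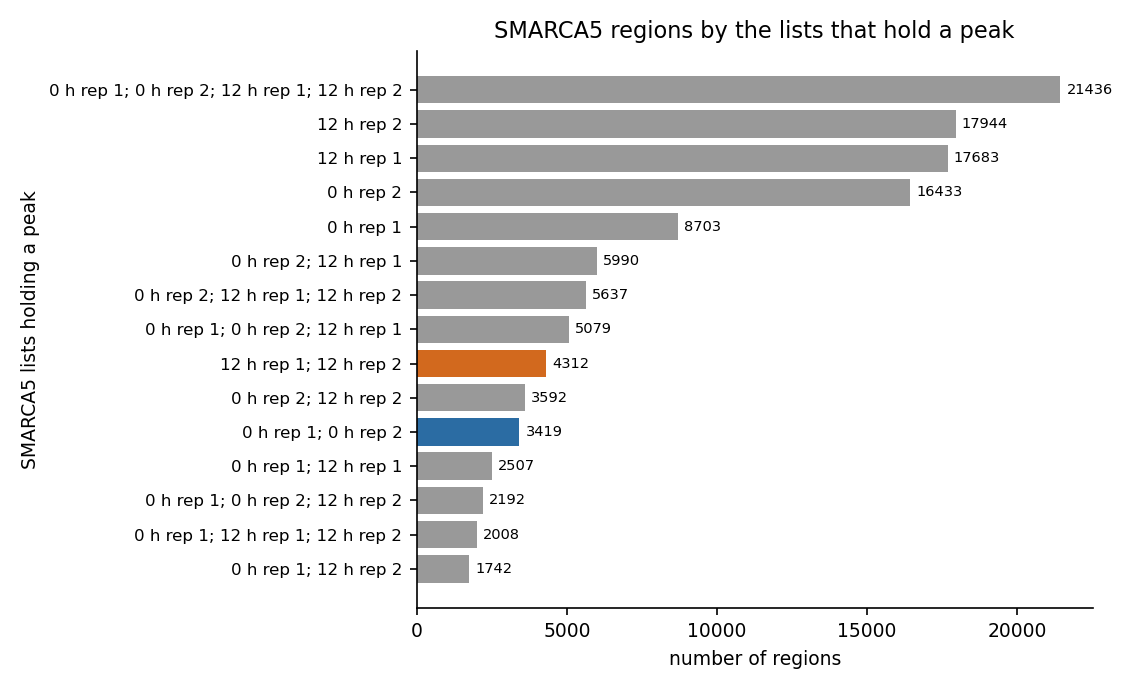
Number of merged SMARCA5 regions (x axis) for each combination of the 4 peak lists that hold a peak in the region (y axis), with the 0 h-only class in blue and the 12 h-only class in orange. The largest bar is the 21436 regions in all 4 lists, and the 5990 regions shared by replicate 2 of 0 h and replicate 1 of 12 h outnumber the 3419 0 h-only and 4312 12 h-only regions.

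Many regions separated the libraries in ways other than time. Of the 21562 regions held by exactly 2 lists, 13831 had 1 list of each time. The lists fall into 2 styles of peak name, with the time written first in replicate 2 of 0 h and replicate 1 of 12 h, and the target written first in the other 2. Both lists of the first style and no other held 5990 regions, and both lists of the second style and no other held 1742. The pairs of mixed style held 3592 (replicate 2 of each time) and 2507 (replicate 1 of each time). The first style holds the 2 longest lists, with 73222 and 71051 peaks, so style cannot be told apart from list length here. The plot of regions by list shows these combinations. The CTCF share set the time classes apart from them. It was 7.40% in the regions of the first style and 5.57% in those of the second, against 26.6% and 3.66% in the 2 time classes. Leaving out 1 list gave 5823 to 20515 0 h-only regions and 6451 to 23553 12 h-only regions, since 1 list then stands for its time. These ranges are above the counts of 3419 and 4312 for each of the 4 libraries left out.

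The share of regions from both 0 h lists that were missing at 12 h differed with their place. At CTCF peaks, 910 of 4909 such regions (18.5%, 17.5% to 19.7%) were in neither 12 h list, against 12.4% (10.9% to 14.0%) within 1 kb of a CTCF peak and 8.99% (8.64% to 9.35%) farther away. Within introns, 405 of 1261 regions at CTCF (32.1%, 29.5% to 34.8%) were absent from both 12 h lists, and 12.2% (11.5% to 12.9%) of the intronic regions away from CTCF. Between genes the shares were 23.7% (21.5% to 26.0%) and 9.24% (8.60% to 9.91%). Within 1 kb of a start site they were 6.41% (5.37% to 7.57%) and 4.68% (4.23% to 5.17%). The plot of regions absent at the other time shows that the gap between CTCF and other regions was wide in introns and between genes and narrow at promoters. Of the regions in both 12 h lists, 4.22% (3.60% to 4.92%) were absent from both 0 h lists at CTCF, 16.8% (15.2% to 18.6%) within 1 kb of a CTCF peak and 13.8% (13.4% to 14.2%) farther away, so here the regions at CTCF had the lowest share.

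**Figure D2:**
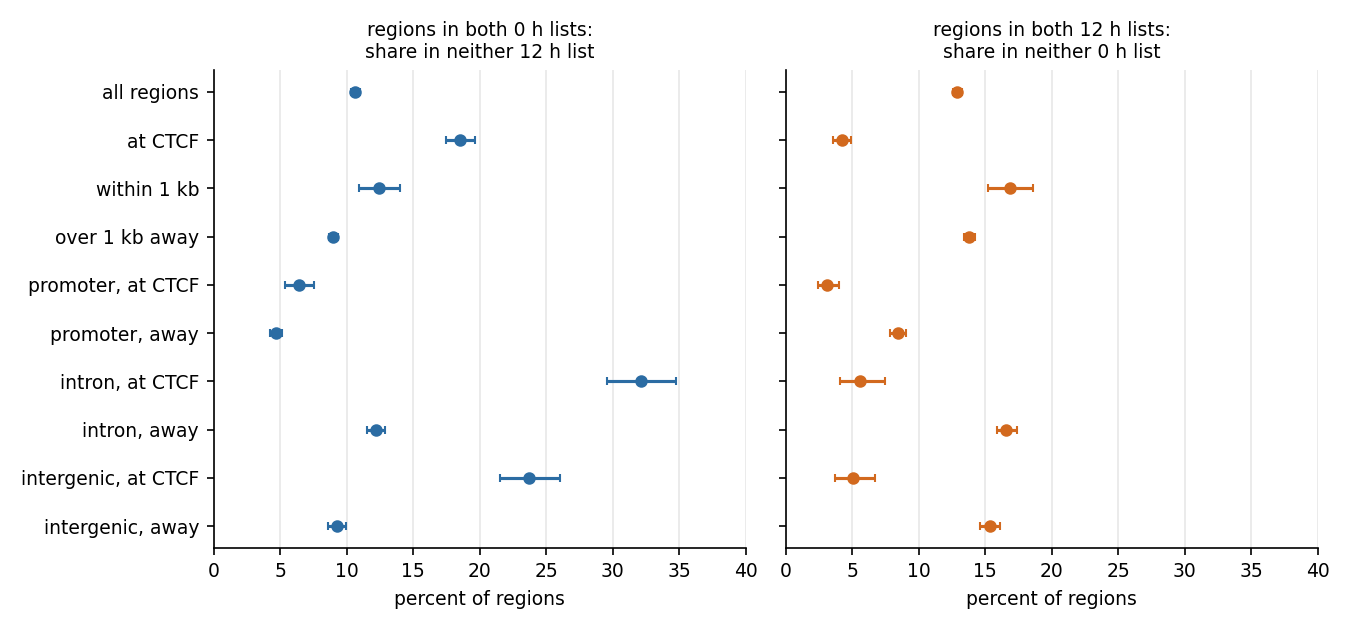
Percent of SMARCA5 regions in both lists of one time that are in neither list of the other (x axes), by distance to a 0 h CTCF peak and by gene annotation (y axis), left for regions of both 0 h lists and right for regions of both 12 h lists. Points are shares and bars exact 95% intervals, and the left panel peaks at 32.1% for intronic regions at CTCF while the right panel is at 4.22% for all regions at CTCF.

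Weak peaks were absent at the other time more often than strong ones, so the regions were also divided into 3 equal classes by their mean rank (−log10 p) within the 0 h lists. In the weakest class 36.8% (34.3% to 39.3%) of the regions at CTCF and 18.6% (17.8% to 19.4%) of those away were in neither 12 h list. In the strongest class the shares were 4.91% (3.96% to 6.003%) and 1.40% (1.16% to 1.68%). The excess at CTCF was present in the weak and in the strong regions. Few CTCF sites kept a peak at 12 h, and SMARCA5 regions at both kinds of site were lost from the lists. Of the regions at CTCF, 14.2% (11.8% to 16.9%) were in neither 12 h list where a CTCF peak was still listed at 12 h, and 19.3% (18.1% to 20.5%) where none was. With a 0 h peak of SMC1A the share was 19.6% (18.1% to 21.1%), and without one 17.3% (15.7% to 18.9%), so these intervals overlap. The CTCF peaks under the 0 h-only regions were strong ones. Their median fold enrichment in the authors' list was 17.7, against 13.7 under the regions of all 4 lists and 12.2 over all CTCF peaks.

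The libraries taken singly also differed in their CTCF share. At 0 h, 10.4% and 10.7% of the peaks overlapped a 0 h CTCF peak, and at 12 h 7.11% and 6.22%. Both 12 h libraries lay below both 0 h libraries, at 10.5% ± 0.161 (SD, n = 2) and 6.67% ± 0.628 (SD, n = 2). The difference was −3.87 percentage points, and −4.20 and −3.54 points within the 2 styles of peak name. With 2 libraries against 2, its two-sided exact permutation p of 0.333 is the smallest the design allows. Regions held by all 4 lists were then ranked by fold enrichment within each library, which follows the same regions whatever the length of a list. The 3021 such regions at CTCF had a median percentile of 54.4 and 55.3 at 0 h and of 49.6 and 44.1 at 12 h, where 50 is the middle of all ranked regions. The change was −8.03 percentile points (exact permutation p = 0.333), without overlap of the libraries. Among peaks with a −log10 q of at least 5 it was −4.02 points with an exact permutation p of 0.667, so the libraries were no longer separated, and without replicate 2 of 0 h it was −6.94 points with the same p.

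**Figure D3:**
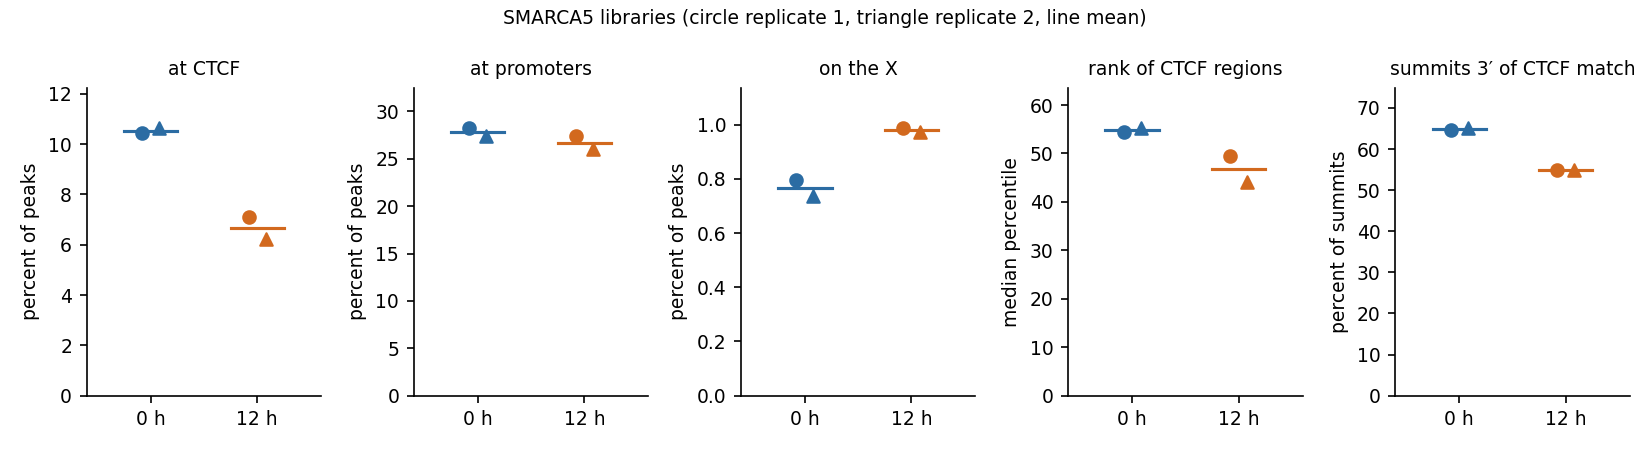
Values of each SMARCA5 library at 0 h and 12 h (x axes): percent of peaks that overlap a 0 h CTCF peak, percent of peaks within 1 kb of a start site, percent of peaks on the X chromosome, median percentile of CTCF regions among the regions of all 4 lists, and percent of summits near a CTCF match that lie on its 3′ side. Circles are replicate 1, triangles replicate 2 and lines means; both 12 h libraries lie below both 0 h libraries for CTCF and above them for the X.

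Around CTCF sites SMARCA5 summits were more frequent on 1 side than on the other at 0 h, and at 12 h most of that asymmetry was gone. A CTCF site has a direction, and the 26638 CTCF peaks with a matrix match were oriented by the strand of the match, so that the 3′ side is downstream of the consensus given above. Of the SMARCA5 summits within 500 bp of a match, 64.5% and 65.2% lay on the 3′ side at 0 h, and 54.9% and 54.8% at 12 h. The libraries did not overlap, and the change was −9.99 percentage points (exact permutation p = 0.333, the smallest possible). The SDs were 0.475 at 0 h and 0.0289 at 12 h (n = 2 each), and an SD from 2 libraries is a poor measure of spread. Around the same matches shifted by 100 kb, the 3′ share was 50.6% and 49.2% at 0 h and 50.0% and 52.3% at 12 h. The median summit was 142 and 140 bp to the 3′ side at 0 h and 43 bp in both libraries at 12 h. In numbers, 3335 and 4506 summits on the 3′ side at 0 h stood against 2192 and 1954 at 12 h, while 1834 and 2406 on the 5′ side stood against 1802 and 1609. The band beyond 100 and up to 300 bp on the 3′ side held 35.4% and 36.6% of the summits at 0 h and 23.2% and 23.1% at 12 h, and the same band on the 5′ side held 17.1% and 16.3% and then 18.9% and 19.7%. This measure was chosen after the data were seen, and it was −11.7 points among matches more than 1 kb from a start site.

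**Figure D4:**
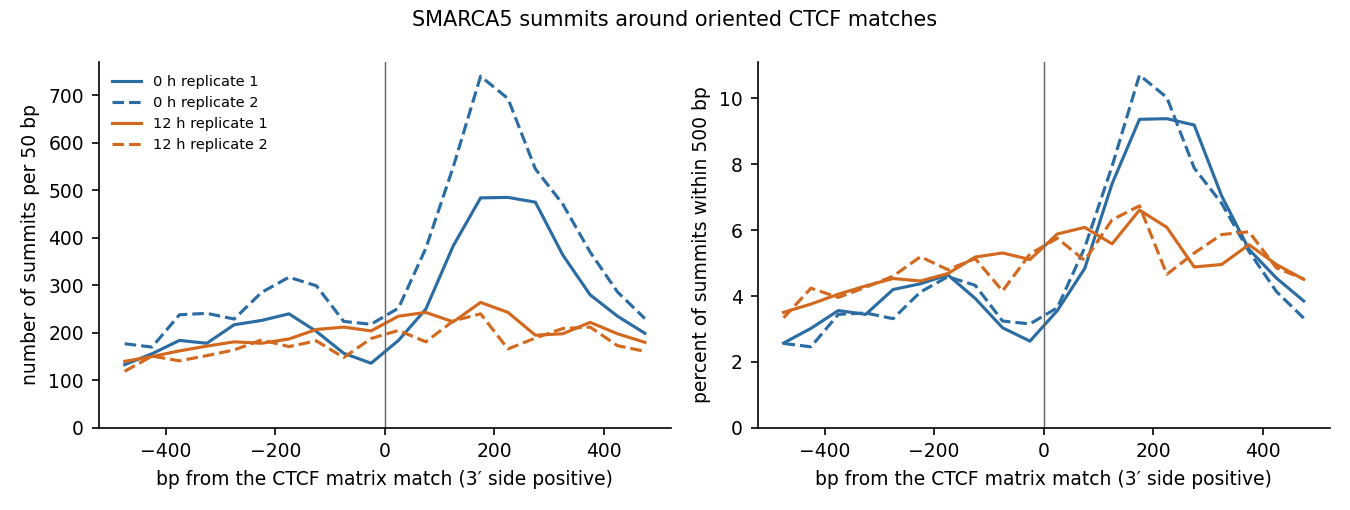
SMARCA5 summits by their distance from the centre of an oriented CTCF match (x axes, bp, 3′ side positive), as the number per 50 bp (left) and as percent of the summits within 500 bp (right), with 1 line per library. The 0 h lines rise on the 3′ side, where 64.5% and 65.2% of the summits lie, and the 12 h lines are more even, with 54.9% and 54.8% there.

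The 0 h-only regions showed this asymmetry as well. Of their 910 regions at CTCF, 71.1% (replicate 1) and 74.2% (replicate 2) of the summits within 500 bp of a match lay on its 3′ side, and the median distance was 212 and 203 bp. About 17.4% and 15.9% of the summits were within 100 bp of the match. In the 12 h-only regions at CTCF the 3′ share was 46.5% and 46.1%, with 114 and 115 summits. In the regions of all 4 lists it was 63.3% and 63.2% at 0 h and 55.8% and 56.6% at 12 h, so the share was lower in regions that kept a peak as well. Of these 3021 regions, 1626 and 1643 had a summit within 500 bp of a match at 0 h, and 1488 and 1486 at 12 h. Each summit is that of the strongest peak of a region in a library, and shifts within single regions were not measured. The median 0 h SMC1A summit lay at −7 bp, on the 5′ side (1 library). Among the other remodelers, SMARCA4, an ATPase of the BAF complexes, had 3′ shares of 69.0% and 62.2% at 0 h and of 55.4% and 56.9% at 12 h. CHD4, the ATPase of the NuRD complex, had 61.7% and 56.3% and then 56.3% and 53.3%, with overlapping libraries. CHD8 had 55.7% and 55.8% at 0 h and 56.6% and 56.8% at 12 h. The differences between remodelers were not tested.

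The libraries of the other remodelers, which played no part in the choice of the regions, were used as a second view of the time classes. At the 910 0 h-only regions at CTCF, CHD4 had a peak in 69.5% ± 7.85 (SD, n = 2) at 0 h and in 32.3% ± 7.30 (SD, n = 2) at 12 h. CHD8 had a peak in 42.4% ± 6.45 (SD, n = 2) and in 18.4% ± 3.88 (SD, n = 2). SMARCA4 had a peak in 53.4% ± 17.3 (SD, n = 2) and in 42.2% ± 6.53 (SD, n = 2), with overlapping libraries. Falls were also seen at the 6546 CTCF regions outside the time classes and the class of all 4 lists, from 67.1% ± 6.68 to 42.0% ± 10.2 (SD, n = 2 each) in CHD4 and from 46.0% ± 7.26 to 31.0% ± 4.93 (SD, n = 2 each) in CHD8, so a fall at CTCF is not particular to the 0 h-only regions. At the 3821 12 h-only regions away from CTCF, SMARCA4 had a peak in 65.9% ± 11.1 (SD, n = 2) at 0 h and in 79.7% ± 3.07 (SD, n = 2) at 12 h, without overlap of the libraries. In the 76607 regions away from CTCF outside the time classes and the class of all 4 lists, the SMARCA4 share also went from 51.5% ± 10.2 to 60.7% ± 1.97 (SD, n = 2 each), again without overlap. At the 12 h-only regions CHD4 had a peak in 58.9% ± 3.76 (SD, n = 2) and 59.8% ± 13.6 (SD, n = 2), and CHD8 in 35.7% ± 6.57 (SD, n = 2) and 39.1% ± 7.18 (SD, n = 2). To allow for list length, the log2 odds of a peak in 0 h-only regions minus that in 12 h-only regions was taken in each of the 12 libraries. It fell by 0.88 from 0 h to 12 h over the 3 remodelers, and the exact permutation p of 0.00926, with times exchanged within a remodeler in 216 ways, is the smallest that can be had. The change was −1.05 in CHD4, −0.54 in CHD8 and −1.07 in SMARCA4, in each without overlap of the libraries. At CTCF the change was −1.36 (exact permutation p = 0.00926). Away from CTCF it was −0.49 (exact permutation p = 0.0185), with −0.60 in CHD4, −0.78 in SMARCA4 and −0.08 in CHD8, whose libraries overlapped. This test was added after the data were seen. The plot of the other remodelers gives each library.

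**Figure D5:**
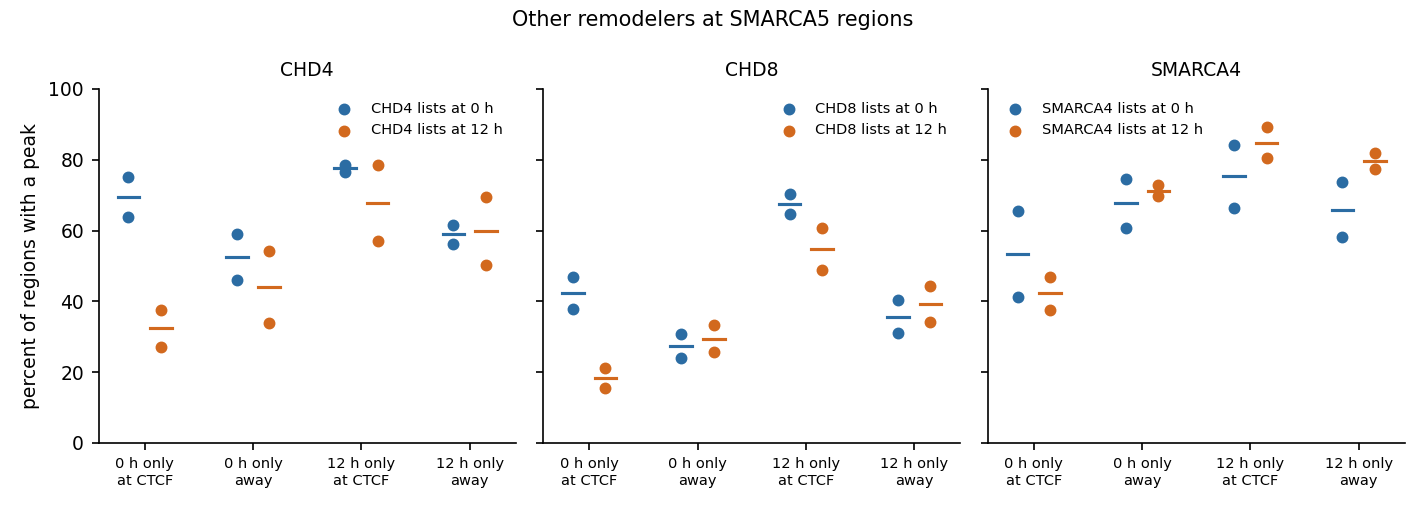
Percent of SMARCA5 0 h-only and 12 h-only regions (x axes, at CTCF or more than 1 kb away) that hold a peak of CHD4, CHD8 or SMARCA4 (y axis), with 1 point per library, lines for means, blue for lists of 0 h and orange for lists of 12 h. In 0 h-only regions at CTCF the CHD4 means are 69.5% at 0 h and 32.3% at 12 h, and in 12 h-only regions away from CTCF the SMARCA4 means are 65.9% and 79.7%.

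By gene annotation both time classes held fewer promoters than the regions of all 4 lists at the authors' threshold. Among peaks with a −log10 q of at least 5 their promoter shares were 29.2% (0 h-only) and 38.4% (12 h-only), and the share for all 4 lists was not computed there. Promoters, taken as a midpoint within 1 kb of a start site in GENCODE M21, made up 16.3% (15.1% to 17.6%) of the 0 h-only regions, 20.6% (19.4% to 21.9%) of the 12 h-only regions and 37.4% (36.8% to 38.1%) of those held by all 4 lists. Introns made up 45.9%, 39.8% and 29.9%, intergenic sequence 32.6%, 34.0% and 29.3%, and other exonic sequence 5.24%, 5.59% and 3.42%. Over all regions the promoter share was 21.4%. It was 16.1% to 25.5% in regions held by 2 lists, 1 of each time, and both time classes lay within that range. The order of the promoter shares of the 2 time classes turned without replicate 1 of 12 h (26.7% and 14.7%) or replicate 2 of 12 h (18.6% and 16.3%). Regions of the time classes were narrower and weaker than those of all 4 lists. Their median widths were 445 and 491 bp against 1234 bp for all 4 lists. The median was 396 bp over all regions and 444 to 478 bp in regions held by 2 lists, 1 of each time. By −log10 p within their own lists, the median rank was at percentile 39.1 and 42.6 (0 h-only) and 38.0 and 42.2 (12 h-only). The regions of all 4 lists stood between 71.0 and 78.6. All regions stood between 50.2 and 51.1, and those outside these 3 classes between 35.1 and 37.6. The share of a library's summits at promoters was 28.3% and 27.4% at 0 h and 27.4% and 26.1% at 12 h. That change of −1.10 points (exact permutation p = 0.333) was −2.20 points within the style with the target first, −0.00 within the style with the time first, and +1.11 points among peaks with a −log10 q of at least 5, so its direction depended on that threshold.

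The highest-ranked 0 h-only regions were mostly CTCF sites. Of the 12 highest, 8 overlapped a 0 h CTCF peak. The region near Nrxn2, a presynaptic adhesion gene, ranked first, with fold enrichments of 7.93 and 8.20 in the 0 h lists. It lay on chromosome 19 from 6418206 to 6418681, 162 bp from the start site of Gm14965. CHD4, CHD8 and SMARCA4 had a peak there in all 6 libraries at 0 h and in all 6 at 12 h, so the other remodelers stayed. The Tut7 region (chromosome 13, 59840523 to 59841224, intergenic, 17727 bp from the start of Tut7, a uridylyltransferase gene) had fold enrichments of 8.58 and 7.84. Peaks of the others were listed there in 5 libraries at 0 h and 0 at 12 h. The Gdf7 region (chromosome 12, 8306663 to 8307066, intergenic, 4911 bp from the start of Gdf7, which encodes a growth factor of the BMP family) had 7.44 and 9.45, and it kept a CTCF peak at 12 h. The others held it in 4 libraries at each time. The Smox region (chromosome 2, 131422920 to 131423804, intergenic, 68402 bp from the start of Smox, which encodes spermine oxidase) had 6.58 and 7.15, with the others in 5 libraries at 0 h and in 1 at 12 h. The Ctif and Zfp516 regions, at CTCF, lay in introns on chromosome 18, and another lay in an exon of Rrm2, which encodes a subunit of ribonucleotide reductase.

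Away from CTCF peaks, the highest 0 h-only regions had Zfp984, Mul1, Nt5e, Zfp808 and Stt3b as nearest protein-coding genes, the last at 142801 bp. The Mul1 region was 34 bp from a CTCF peak. The Nt5e region (chromosome 9, 88318394 to 88319135, 8432 bp from the start of the gene, which encodes the ectoenzyme CD73) had fold enrichments of 7.44 and 4.51 and was 76445 bp from the nearest CTCF peak. Zfp981, Zfp984 and Zfp808 are zinc-finger genes of families with many near-identical copies, so the placement of reads in those 3 regions is uncertain. None of the 12 highest 12 h-only regions overlapped a CTCF peak. The first, near C330021F23Rik (chromosome 8, 3547281 to 3547766, intergenic), had fold enrichments of 8.68 and 7.13 in the 12 h lists, with the other remodelers in 0 libraries at 0 h and 2 at 12 h. The region near Rnf223 (chromosome 4, 156136623 to 156137059) had 6.78 and 5.71 and was 239 bp from a CTCF peak. Those near Eif2b5, which encodes a subunit of a translation initiation factor, Extl3 and Bcar3 were 447, 158 and 556 bp from one. The regions assigned to Phf14 and Cdh6 were 17463 and 67944 bp from a CTCF peak. They lay far from those genes, at 181770 bp from the start of Phf14 and 1523396 bp from that of Cdh6.

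No gene gathered many of the regions. The genes nearest to most 0 h-only regions were Zfhx3, a homeobox and zinc-finger factor, with 8 of its 107 SMARCA5 regions, and Klf6, Pde4d and St6galnac5 with 6 each. Bhlhe40, Epb41l4a, Etl4, Foxn2, Jarid2, a partner of the Polycomb complex PRC2, and Lmnb1, which encodes lamin B1, had 5 each. In the order named, the 12 h-only regions nearest to these genes numbered 5, 1, 3, 0, 0, 3, 5, 3, 4 and 1. The 0 h-only share of a gene's SMARCA5 regions ran from 4.35% (Jarid2, 5 of 115) to 22.2%, against 2.88% over all regions. By share St6galnac5 led with 6 of 27 regions (22.2%), 1 of them at CTCF. These 6 lay within a span of 44148 bp, but 260307 to 304064 bp from the start of St6galnac5, and the nearest start site of any gene was that of 1700012D16Rik. The genes nearest to most 12 h-only regions were Smad7, an inhibitor of TGF-β signalling, with 11 of 141 regions, Tfap2c, which encodes a factor of the germ line and trophoblast, with 9 of 76, and Rnf220 with 8 of 77. Magi1, Reep3, Tnfrsf19 and Wasf2 had 7 each, and Bcat1, Esrrb and Fnbp1 had 6 each. In the order named, the 0 h-only regions nearest to these genes numbered 2, 1, 0, 4, 3, 0, 0, 1, 1 and 0. The 12 h-only share of a gene's SMARCA5 regions ran from 5.83% (Magi1, 7 of 120) to 22.6%, against 3.63% over all regions. By share Tnfrsf19 led with 7 of 31 (22.6%), followed by Wasf2, an actin regulator, with 7 of 42 (16.7%). Of these 74 12 h-only regions, 1 was at a CTCF peak, near Esrrb.

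Gene lists were described by how many members had a region of a time class within 10 kb of a start site. Over all 21728 protein-coding genes this was 7.91% for 0 h-only and 10.1% for 12 h-only regions, and 71.9% had a SMARCA5 region of any class. Of 25 pluripotency genes, 4 had a 0 h-only region (Lin28a, Prdm14, Sox2 and Tet2) and 10 a 12 h-only region (Dppa3, Esrrb, Fbxo15, Fgf4, Nanog, Nr5a2, Sall4, Tcl1, Tfcp2l1 and Zfp42). None of them had both. Over all 21728 protein-coding genes only 305 had both, so this lack of overlap says nothing particular about the list. A SMARCA5 region of some class lay near 24 of the 25. Of the 222 SMARCA5 regions near these genes, 1.80% were 0 h-only and 5.41% were 12 h-only, against 2.80% and 3.63% of the regions near all protein-coding genes. The Sox2 region (chromosome 3, 34639577 to 34640647) overlapped a CTCF peak 9758 bp from the start of this pluripotency factor and had fold enrichments of 5.15 and 6.45 in the 0 h lists. The Lin28a and Tet2 regions also overlapped CTCF peaks. In contrast, the 12 h-only regions near these genes numbered 12 and 1 of them did, near Tfcp2l1. The Esrrb region (chromosome 12, 86473967 to 86475467) had fold enrichments of 3.30 and 4.24 at 12 h, and the Nanog region (chromosome 6, 122708872 to 122709247, 1304 bp from a start site) 3.69 and 3.29. At the Tcl1 promoter the values were 3.88 and 2.98.

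Among 28 lineage regulators, 6 had a 0 h-only and 7 a 12 h-only region, with Foxa1 and Gata2 in both counts. Over all protein-coding genes, 305 of 21728 were in both counts. Of the 176 SMARCA5 regions near them, 3.98% were 0 h-only and 5.68% were 12 h-only, against 2.80% and 3.63% near all protein-coding genes. The Tbx6 region (fold enrichments 4.00 and 4.98) and the Foxa1 promoter region (3.72 and 3.45) were 0 h-only and at CTCF. A CTCF peak was still listed at 12 h in the Tbx6 region, and none in the Foxa1 promoter region. Of 39 Hox genes, 8 and 10 were counted, but neighbouring Hox genes share regions, and the counts rest on 6 and 5 regions. Of 30 imprinted genes, 2 and 4 were counted. Grb10, an adaptor of insulin receptor signalling, had 3 0 h-only regions, 1 of them at CTCF, and Meg3, a maternally expressed noncoding RNA, had a 12 h-only region at its promoter (3.96 and 4.89) that overlapped a 0 h CTCF peak and an SMC1A peak. Of 79 ribosomal protein genes, 15 had a 0 h-only and 26 a 12 h-only region, and of the 657 regions near them 2.13% were 0 h-only and 4.72% were 12 h-only, against 2.80% and 3.63% near all protein-coding genes. Of 14 genes for ISWI subunits, 0 and 1 (Bptf) were counted, and of 14 genes for CTCF and cohesin 0 and 0. Lists this short hold few such genes at the shares of 7.91% and 10.1% over all genes, so these counts say nothing particular about them.

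On the X chromosome the balance was tilted to 12 h. Of 1298 X regions, 20 (1.54%) were 0 h-only and 67 (5.16%) were 12 h-only, against 2.90% and 3.62% on the autosomes. The X-linked 12 h-only regions were at promoters in 37 of 67 cases (55.2%), and the autosomal ones in 20.1%. Among all X peaks, the summit was at a promoter in 23.4% and 31.1% at 0 h and in 36.4% and 37.7% at 12 h. Over all chromosomes these shares were 28.3% and 27.4% at 0 h and 27.4% and 26.1% at 12 h. The promoter share of all X regions was not computed. The X held 0.795% and 0.737% of a library's peaks at 0 h and 0.989% and 0.973% at 12 h. This is 441 and 540 X peaks against 703 and 652, and the 12 h libraries lay above the 0 h libraries within both styles of peak name, by 0.178 and 0.252 points (mean change 0.215 points, exact permutation p = 0.333, a measure chosen after the data were seen). X-linked promoter peaks numbered 103 and 168 at 0 h and 256 and 246 at 12 h. In the other remodelers the X share changed by −0.03 points in CHD4, 0.01 in CHD8 and −0.13 in SMARCA4. Among the highest of the promoter regions were those of the amino acid transporter gene Slc7a3 (chromosome X, 101084559 to 101085288, fold enrichments 4.61 and 4.78 at 12 h), Cask (3.80 and 5.99), Cdk16 (4.61 and 3.32), Uxt (4.34 and 3.78) and Rbm3, a cold-inducible RNA-binding protein gene (4.34 and 3.84). These X-linked genes were named after their values were seen.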

How the data were processed

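Of 30 samples, 20 have a peak list in the narrowPeak layout, 1 list per library. The 10 input samples were not analysed here. Per the submitters' processing notes, Trim Galore, Bowtie2, MACS2 and deepTools were used, with no versions given, and mm10 and hg38 are named as builds. All SMARCA5 peaks ended within GRCm38 chromosome lengths. Fold enrichment (a ratio to local background) and the −log10 p and −log10 q of each peak are the authors' deposited values, used to rank or filter within a list.

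Regions, classes, distances and exact two-sided permutation tests over libraries were computed with Python 3.11 and numpy, pandas and scipy, and gene annotation came from GENCODE M21. The midpoint of a region set its annotation, and the nearest gene is the protein-coding gene with the nearest start site unless another is named. The code was tested on simulated lists with known lost and gained regions, on planted matrix matches and on values with known permutation p. Named regions are the 12 highest by mean percentile of −log10 p per class, the 5 highest off CTCF, the 10 genes nearest to most regions, and members of 7 gene lists within 10 kb. Members and lists were chosen with earlier results of these data known. Alternatives were each library left out, summits in place of peaks, wider windows, lists of equal length and a stricter −log10 q (at least 5).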

Additional observations from a re-analysis of the deposited data

How the results depend on the processing

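The signs of the changes in CTCF share, CTCF rank, X share, 3′ share and the odds at the other remodelers held in every alternative run on them, but the change in CTCF rank was −4.02 points (exact permutation p = 0.667) at a −log10 q of at least 5. The change in promoter share reversed to 1.11 points at a −log10 q of at least 5. That setting, which tests fewer peaks, gave 1102 0 h-only and 1865 12 h-only regions, CTCF shares of 24.8% and 7.61%, and promoter shares of 29.2% and 38.4%. At equal list lengths there were 3473 and 3344 regions, the 12 h-only CTCF share was 4.43% and the promoter shares 19.5% and 25.1%. With summits and 100 bp to either side there were 6062 0 h-only and 6052 12 h-only regions, CTCF shares of 15.4% and 4.81%, and promoter shares of 27.0% and 28.3%. With no peak of the other time within 1 kb, 1480 and 1805 regions remained, with CTCF shares of 39.1% and 3.55% and promoter shares of 10.1% and 16.2%. A CTCF window of 1 kb gave 33.3% and 11.4%, and a promoter window of 2.5 kb gave 28.1% and 31.5%. Leaving out 1 library gave 5823 to 20515 0 h-only and 6451 to 23553 12 h-only regions, CTCF shares of 14.7% to 21.0% and 2.72% to 5.63%, and promoter shares of 14.6% to 26.7% and 14.7% to 28.6%. It gave changes of −4.32 to −3.43 points in CTCF share, −10.7 to −6.86 in CTCF rank, −1.73 to −0.47 in promoter share, 0.186 to 0.244 in X share and −10.3 to −9.66 in 3′ share. The change at the other remodelers was −0.95 to −0.82 log2 odds as each of 12 libraries was left out, with an exact permutation p of 0.00926 each time. Same-numbered libraries did not deviate together (r = −0.01 over 21436 regions). With the replicate number as a block the exact permutation p of the changes of −3.87 points in CTCF share, −1.10 in promoter share, −8.03 in CTCF rank, 0.215 in X share and −9.99 in 3′ share was 0.5, the smallest that block allows. Depth is unknown, so a weak site missed by a list cannot be told from an empty one. Apart from what each construction changes, the cause of these shifts was not tested.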

Other observations

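Short sequence motifs were counted on both strands within 100 bp of the SMARCA5 summit of the regions more than 1 kb from a CTCF peak. The letters of the ESRRB motif, TCAAGGTCA, were found in 0.526% of the 0 h-only, 0.995% of the 12 h-only and 0.632% of the regions of all 4 lists, against 0.681% over the 3 classes. The POU5F1 octamer, ATGCAAAT, was found in 1.01%, 0.733% and 0.788% (0.800% over the 3 classes). The CTCF matrix matched in 3.72%, 5.65% and 6.37%, where 5.0% is the share set by its threshold. Median GC content at the summit was 47.3%, 50.7% and 49.8%. These shares are descriptions with no test, and a match is not a binding site.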
